A study of Mus musculus with 9 samples.

Results

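The 57 genes described here build the mitotic spindle, hold and separate chromosomes, and divide the cell. They were chosen by name for these roles in mitosis and cytokinesis, and make up 57 of the 37325 gene names on the array. All 57 were tested, among 29410 genes in all, and all 57 were well above background on every array. They are taken in 8 role groups: transcription and proliferation markers, G2/M cyclins and kinases, the chromosomal passenger complex, the kinetochore and spindle checkpoint, anaphase promotion and separase, spindle motors and assembly factors, cytokinesis, and condensin.

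RNA came from megakaryocytes, the platelet-forming cells of the bone marrow, of male mice without irradiation (Ctrl) and at 1 and 3 days after 5 Gy of γ-rays (1 dpi and 3 dpi), with 3 Agilent 1-colour arrays in each group. The cells had been taken from marrow after red cell lysis by CD41+ and then CD42d+ selection, and total RNA was extracted. Per the design notes, different donor animals were used for each of 3 independent experiments, and the study's methods name C57BL/6 as its wild-type mice without saying which mice gave the array samples. Ctrl replicate 1 was alone on its slide, and the other 8 arrays shared another, so the slide can be separated from irradiation only within those 8.

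Array depth, as the share of probes well above background, was 69.1, 79.5 and 80.8% on the Ctrl arrays, 72.3, 74.8 and 75.6% at 1 dpi and 81.8, 81.6 and 81.8% at 3 dpi. Levels are given as log2 of the processed intensity minus the log2 75th percentile of the same array, so a level of 0 is that percentile. Before scaling, this percentile was 10.03, 10.62 and 10.66 (log2 intensity) on the Ctrl arrays, 9.33, 9.45 and 9.43 at 1 dpi and 10.37, 10.55 and 10.53 at 3 dpi, lowest on the 1 dpi arrays. Levels of different probes are not compared as amounts of RNA, and where a summed level is given, its brightest probe is named as the one that weighs most in the sum. With 3 arrays a group, the number of arrays limits the precision of each fold change, which is printed with its standard error after ±.

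A dividing cell condenses its chromosomes, attaches them to a spindle through the kinetochores, separates them in anaphase and is then pinched apart by a contractile ring. Megakaryocytes become polyploid by endomitosis, in which they enter mitosis but do not complete cytokinesis. Many mitotic genes are switched on together late in the cell cycle, through CHR and CCAAT elements in their promoters.

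At 1 dpi most mitosis and cytokinesis genes were lower than in Ctrl, most of them by less than 2-fold. Genes of the kinetochore, the spindle, cytokinesis and condensin were among those that fell. Mybl2, Cep55 and Pttg1 went the other way. Of the members, 49 of 57 had a log2 fold change below 0, beside 36.3% of all genes tested. Their median was -0.34 (1.27-fold lower) where the median of all genes was 0.25, a difference of -0.59, and 54 of 57 lay below the all-gene median. With quantile scaling the all-gene median was 0.001, the difference was -0.38 and 51 of 57 lay below. The level of the median member was 2.44, 2.39 and 2.37 on the Ctrl arrays, 1.94, 2.005 and 2.02 at 1 dpi and 2.44, 2.53 and 2.51 at 3 dpi, lowest on the 1 dpi arrays. The median of all genes was far dimmer, at -2.37, -2.11 and -2.12 on the Ctrl arrays. Values relative to all genes thus set bright members beside mostly dimmer genes.

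A gene was called where limma gave an adjusted p under 0.05 over all genes and at least a 2-fold change. By this rule 1 of 57 members, Kif18a, was lower at 1 dpi, beside 2.87% of all genes, and 0 of 57 were higher, beside 12.3% of all genes. At an unadjusted p under 0.05, 39 members were lower and 3 higher. The share of all genes at that threshold was not counted, so these counts have nothing beside them. With the same minimum fold, the unpaired t-test that the study's methods name for pairs of groups also called 1 lower and 0 higher. The count of 1 was 10 with array medians, where the members' median was -0.66, and 5 with deposited values. Of all genes, 2087 of 29410 were called lower with array medians and 1893 of 27275 with deposited values, against 845 of 29410 in the main fit. With no minimum fold, an alternative whose split by direction was added after the data were seen, 36 of 57 members (63.2%) were lower at an adjusted p under 0.05, beside 21.1% of all genes, and 3 of 57 (5.26%) were higher, beside 34.8% of all genes. The 3 Ctrl and 3 1 dpi arrays did not overlap for 47 of 57 members, beside 67.5% of all genes. Below, fell and rose are used of genes past the adjusted p, and called only of those that also passed the 2-fold minimum. With the slide as a block, which leaves the comparison within the 8 arrays of the shared slide, the members' median was -0.30, and -0.45 relative to all genes.

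**Figure D1:**
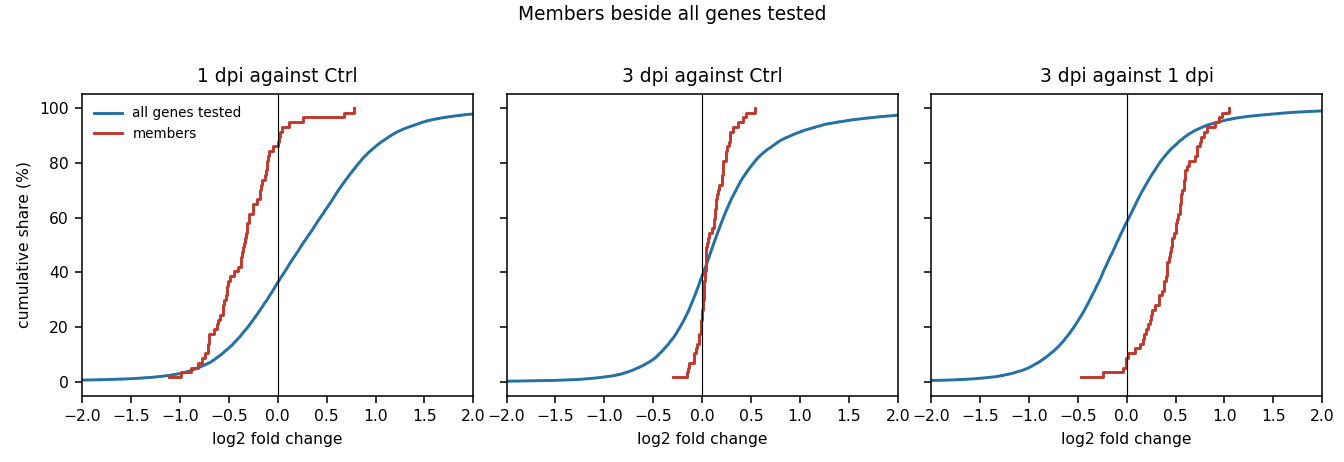
Cumulative share of genes (%) by log2 fold change, for the members in red and all genes tested in blue, in the 3 comparisons. The red curve lies left of the blue at 1 dpi, close to it at 3 dpi, and right of it for 3 dpi against 1 dpi.

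By 3 dpi the members were back near their Ctrl levels. Most role groups had a median above 0, condensin being below it at -0.01, and Plk1, Ube2c, Spc24 and Mybl2 stood above Ctrl. The same Ctrl arrays serve both the 1 dpi and the 3 dpi comparison, so the values are given side by side and are not independent. Of the members, 42 of 57 were above 0, beside 61.2% of all genes. Their median was 0.04 where the median of all genes was 0.11. With array medians 23 of 57 were above 0 and 34 below, and the median was -0.08. Relative to all genes the median was -0.07 at 3 dpi, and 0.13 with the slide as a block, and its sign turned with quantile scaling, normexp and deposited values too. By limma 0 of 57 members were called higher, beside 6.98% of all genes, and 0 of 57 lower, beside 1.82% of all genes. The test of the methods also called 0. At an unadjusted p under 0.05 there were 13 higher and 1 lower, with the share of all genes not counted. With no minimum fold 10 of 57 (17.5%) were higher, beside 16.9% of all genes, and 1 of 57 (1.75%), Cenpn, was lower, beside 15.1% of all genes. The count of 10 was 0 when each array's median replaced its 75th percentile, and 18 with the slide as a block. The share of all genes beside it is given for the main setting only. Groups did not overlap for 19 of 57 members, beside 47% of all genes.

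From 1 to 3 dpi the members climbed again. This comparison uses the same 1 dpi arrays as the first and the same 3 dpi arrays as the second, all on the shared slide. Of the members, 52 of 57 were above 0, where 58.3% of all genes were below 0. The median was 0.46 (1.38-fold higher) beside -0.11 for all genes, a difference of 0.57. Kif18a alone was called higher, 1 of 57, beside 3.97% of all genes, and 0 of 57 were called lower by limma, beside 4.82% of all genes. The test of the methods gave the same counts. At an unadjusted p under 0.05 there were 46 higher and 2 lower, with the share of all genes not counted. With no minimum fold 44 of 57 (77.2%) rose, beside 19.8% of all genes, and 1 of 57, Cep55, fell, beside 24.9% of all genes. Groups did not overlap for 51 of 57 members, beside 65.5% of all genes.

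**Figure D2:**
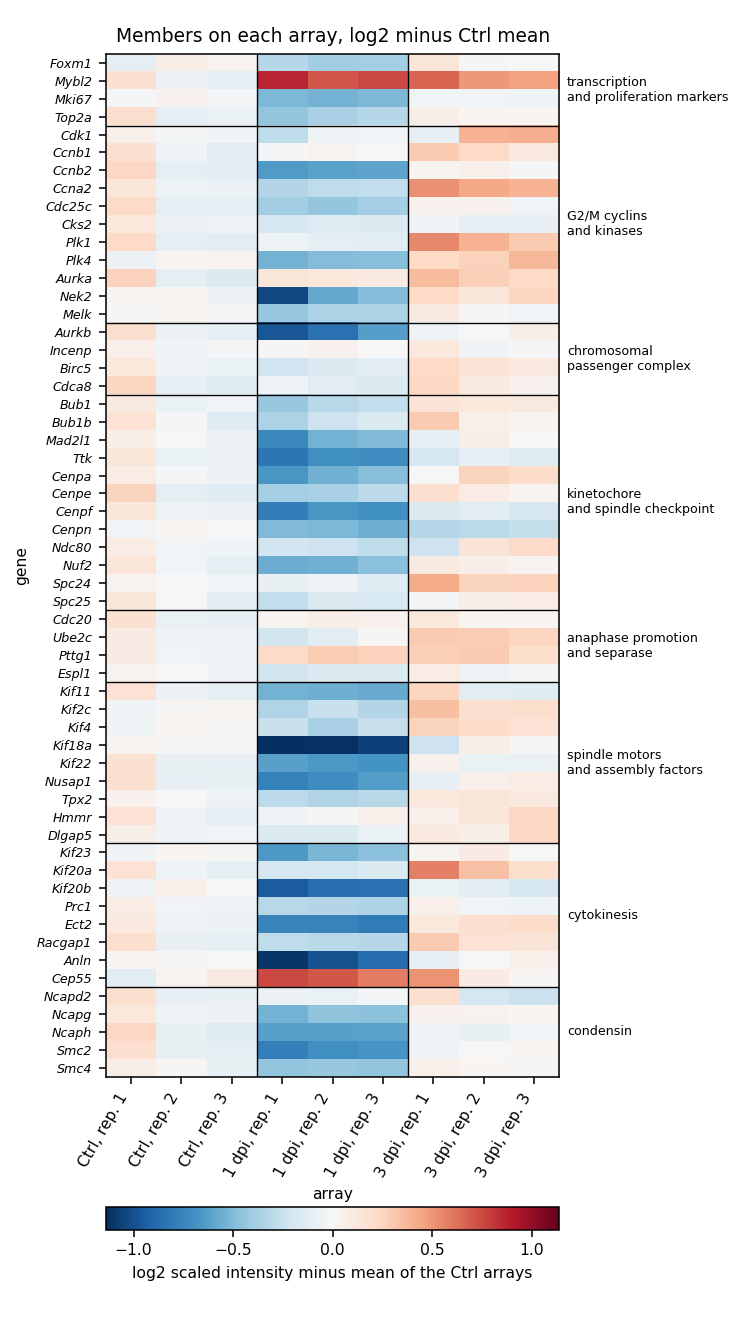
Members by role group on each of the 9 arrays, as log2 scaled intensity minus the mean of the Ctrl arrays (blue lower, red higher). Most genes are blue on the 1 dpi arrays only, and Mybl2 and Cep55 are red there.

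Promoters were searched for the CHR element (TTTGAA or TTCGAA, with TTCAAA its form on the other strand) and the CCAAT box (ATTGG on the other strand), in RefSeq promoters of build GRCm38.p6 from 250 bases before to 50 after the transcription start. Of the 57 members, 47 had an entry. A CHR was found in 33 (70.2%), beside 21.7% of all 27025 genes, a CCAAT box in 32 (68.1%), beside 41.1%, and both in 28 (59.6%), beside 9.65%. Kinetochore genes carried a CHR in 8 of 11 and cytokinesis genes in 7 of 7, while for the G2/M cyclins and kinases it was 4 of 9 with a CHR and 7 of 9 with a CCAAT box. There was no entry for Foxm1, Ccna2, Cdc25c, Aurkb, Incenp, Spc24, Tpx2, Dlgap5, Kif20a and Smc4. A match is a description of the sequence, and its use in these cells was not tested.

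The stretches below run from 120 bases before to 30 after the start, on the strand of the gene, with matches in capitals. They show a G2/M kinase (Cdk1, chr10:69352883-69353032, minus strand), kinetochore genes (Ttk, chr9:83834569-83834718, plus strand, and Cenpf, chr1:189688057-189688206, minus strand) and cytokinesis genes (Ect2, chr3:27153849-27153998, and Kif23, chr9:61946770-61946919, both minus strand) with both elements. Kif18a (chr2:109280618-109280767, plus strand) is shown as the called member, and has neither in this stretch. All 6 were picked after their values were seen.
Cdk1: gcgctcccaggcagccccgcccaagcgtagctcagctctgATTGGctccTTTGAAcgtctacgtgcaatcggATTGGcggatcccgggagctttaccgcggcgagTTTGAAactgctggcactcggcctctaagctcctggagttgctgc
Ttk: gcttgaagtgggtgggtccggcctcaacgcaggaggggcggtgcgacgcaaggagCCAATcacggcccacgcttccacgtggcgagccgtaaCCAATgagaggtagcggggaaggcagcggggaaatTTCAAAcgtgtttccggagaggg
Cenpf: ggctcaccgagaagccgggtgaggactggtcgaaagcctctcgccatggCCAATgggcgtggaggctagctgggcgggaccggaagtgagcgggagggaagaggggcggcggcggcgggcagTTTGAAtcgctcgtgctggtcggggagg
Ect2: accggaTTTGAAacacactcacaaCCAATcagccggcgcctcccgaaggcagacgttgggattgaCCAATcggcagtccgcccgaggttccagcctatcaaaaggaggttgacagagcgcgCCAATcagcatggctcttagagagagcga
Kif23: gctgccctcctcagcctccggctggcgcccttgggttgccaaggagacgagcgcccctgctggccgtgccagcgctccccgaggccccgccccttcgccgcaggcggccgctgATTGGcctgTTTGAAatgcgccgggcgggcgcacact
Kif18a: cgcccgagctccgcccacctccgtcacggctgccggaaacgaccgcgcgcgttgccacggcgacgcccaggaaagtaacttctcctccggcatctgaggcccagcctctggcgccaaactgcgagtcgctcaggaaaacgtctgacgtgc

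Among the transcription and proliferation markers, 3 of 4 (75%) fell at 1 dpi, beside 21.1% of all genes, and Mybl2 rose. Foxm1, a transcription factor of the late cell cycle genes, read 1.58, 1.77 and 1.73 on the Ctrl arrays, 1.37, 1.30 and 1.31 at 1 dpi and 1.83, 1.67 and 1.69 at 3 dpi. Its 1 dpi arrays were all below Ctrl, with a log2 fold change of -0.37 ± 0.07 (adjusted p 0.0043), and at 3 dpi it overlapped Ctrl again (0.04, adjusted p 0.74). Mki67, which coats mitotic chromosomes and marks dividing cells, read 5.03, 5.09 and 5.02 on the Ctrl arrays, 4.54, 4.51 and 4.53 at 1 dpi and 5.01, 5.02 and 5.01 at 3 dpi. It fell at 1 dpi with no overlap (-0.52 ± 0.05, adjusted p 0.00014), and from 1 to 3 dpi rose by 0.49 to its Ctrl level. Top2a, the topoisomerase that untangles sister DNA, read 4.18, 3.90 and 3.92 on the Ctrl arrays, 3.55, 3.63 and 3.68 at 1 dpi and 4.06, 4.02 and 4.02 at 3 dpi. All 3 of its 1 dpi arrays were below all Ctrl arrays (-0.38 ± 0.09, adjusted p 0.0074), while at 3 dpi they overlapped (0.03). Other probes of Top2a gave 0.03, -0.69 and -0.95 at 3 dpi, so its return to Ctrl depends on the probe. Mybl2, a transcription factor that works with the MuvB core on G2/M genes, moved the opposite way and read 3.07, 2.83 and 2.80 on the Ctrl arrays, 3.77, 3.61 and 3.65 at 1 dpi and 3.56, 3.39 and 3.36 at 3 dpi. It rose at 1 dpi (0.78 ± 0.10, adjusted p 0.00045) and was still above every Ctrl array at 3 dpi (0.54 ± 0.10, adjusted p 0.0042). Foxm1 and Mybl2, which act on the same genes, thus parted at 1 dpi.

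Among the G2/M cyclins and kinases, several cyclins and centrosome kinases fell at 1 dpi, and Cdk1, Plk1 and Aurka did not pass the test. All 11 of 11 lay below the all-gene median, Cdk1 by 0.37 and Plk1 by 0.34, with a relative median of -0.55. The median of the 11 genes was -0.30 at 1 dpi, 0.21 at 3 dpi and 0.43 for 3 dpi against 1 dpi. Cdk1, the main mitotic kinase, read 0.78, 0.71 and 0.69 on the Ctrl arrays, 0.44, 0.68 and 0.70 at 1 dpi and 0.63, 1.12 and 1.15 at 3 dpi. Its groups overlapped in every comparison, and the fold changes of -0.12, 0.24 and 0.36 did not pass the test (adjusted p 0.48, 0.25 and 0.077). Ccnb1, its cyclin, read 2.89, 2.67 and 2.59 on the Ctrl arrays, 2.71, 2.76 and 2.71 at 1 dpi and 3.01, 2.94 and 2.82 at 3 dpi. The 1 dpi arrays lay within the Ctrl range, with a fold change of 0.01 ± 0.09 (adjusted p 0.94). Plk1, the polo-like kinase of mitotic entry and exit, read 3.9996, 3.66 and 3.65 on the Ctrl arrays, 3.71, 3.67 and 3.65 at 1 dpi and 4.31, 4.17 and 4.07 at 3 dpi. It overlapped Ctrl at 1 dpi (-0.09, adjusted p 0.49), and at 3 dpi rose above every Ctrl array (0.42 ± 0.11, adjusted p 0.023). Aurka, the spindle pole kinase, read 3.54, 3.16 and 3.11 on the Ctrl arrays, 3.41, 3.39 and 3.37 at 1 dpi and 3.63, 3.54 and 3.50 at 3 dpi. Ctrl replicate 1 was above its 1 dpi arrays and the other Ctrl arrays below them, and the fold change was 0.12 ± 0.11 (adjusted p 0.39), or 0.25 with the slide as a block (adjusted p 0.0092). This makes Aurka 1 of the members whose test depends on Ctrl replicate 1.

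Below these kinases, Nek2, which parts the centrosomes, moved furthest and read -1.24, -1.23 and -1.34 on the Ctrl arrays, -2.31, -1.85 and -1.76 at 1 dpi and -1.04, -1.14 and -1.02 at 3 dpi. All its 1 dpi arrays were below Ctrl (-0.70 ± 0.14, adjusted p 0.0036), and it rose from 1 to 3 dpi by 0.90 ± 0.14 (adjusted p 0.0015). The cyclins Ccnb2 and Ccna2 and the Cdk1-activating phosphatase Cdc25c fell at 1 dpi (-0.62, -0.30 and -0.41), as did Plk4, which starts centriole duplication, and the kinase Melk (-0.51 and -0.38). Cks2, a small Cdk-binding protein, had -0.17 (adjusted p 0.069). At 3 dpi, Ccna2 and Plk4 joined Plk1 above Ctrl, with 0.45 and 0.29 (adjusted p 0.0024 and 0.011). Other probes gave 0.16 for Ccna2 and -0.06 and -0.02 for Plk4 there, so the direction of Plk4 depends on the probe. In all, 6 of 11 (54.5%) fell at 1 dpi, beside 21.1% of all genes. At 3 dpi 3 (27.3%) rose, beside 16.9% of all genes, and from 1 to 3 dpi 7 (63.6%), beside 19.8%. Aurka and Ccnb1 also passed at 3 dpi with the slide as a block (0.42 and 0.30, adjusted p 0.0016 and 0.015). With this block both also passed from 1 to 3 dpi (0.17 and 0.20, each with adjusted p 0.028).

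In the chromosomal passenger complex the kinase changed most at 1 dpi. Aurkb, which corrects chromosome attachments and prepares cytokinesis, read 2.24, 1.99 and 1.95 on the Ctrl arrays, 1.09, 1.21 and 1.44 at 1 dpi and 2.002, 2.07 and 2.13 at 3 dpi. Its 1 dpi arrays were all below Ctrl (-0.82 ± 0.11, adjusted p 0.00073), and it came back by 3 dpi (0.82 ± 0.11, adjusted p 0.00099 against 1 dpi). Incenp, the scaffold, read 4.51, 4.40 and 4.43 on the Ctrl arrays, 4.46, 4.50 and 4.45 at 1 dpi and 4.56, 4.40 and 4.42 at 3 dpi. Its arrays overlapped, with 0.02 ± 0.07 (adjusted p 0.78) at 1 dpi. Birc5 (survivin) read 5.42, 5.26 and 5.22 on the Ctrl arrays, 5.08, 5.14 and 5.17 at 1 dpi and 5.53, 5.45 and 5.41 at 3 dpi. Though its 1 dpi arrays were below all Ctrl arrays, the change of -0.17 ± 0.07 (adjusted p 0.079) did not pass the test, and it rose from 1 to 3 dpi by 0.33 ± 0.07 (adjusted p 0.0071). Cdca8 (borealin) had -0.11 at 1 dpi and 0.13 at 3 dpi. The group median of -0.14 at 1 dpi was -0.40 with quantile scaling, -0.45 with array medians and -0.67 with deposited values. Without Ctrl replicate 1 it was -0.05, so the size of this group's change depends on the scaling and on that array.

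Kinetochore and checkpoint genes all read lower at 1 dpi on their brightest probes, though not all passed the test. All 12 had fold changes below 0 and 1 dpi arrays below every Ctrl array, where 67.5% of all genes did not overlap. The adjusted p was passed by 8 of 12 (66.7%), beside 21.1% of all genes lower, and another probe of Nuf2 gave 0.07. The group median was -0.44 (-0.69 after subtracting the all-gene median). Ttk (Mps1), the kinase that starts the checkpoint, read 0.88, 0.67 and 0.68 on the Ctrl arrays, -0.08, 0.05 and 0.03 at 1 dpi and 0.55, 0.65 and 0.59 at 3 dpi. It fell by 0.74 (± 0.08, adjusted p 0.00019) and recovered by 0.60 from 1 to 3 dpi. Other probes of Ttk gave 0.75, 1.14 and -0.01 from 1 to 3 dpi, so its recovery depends on the probe. Bub1b (BubR1), its effector at unattached kinetochores, read 1.03, 0.85 and 0.71 on the Ctrl arrays, 0.50, 0.63 and 0.70 at 1 dpi and 1.16, 0.93 and 0.90 at 3 dpi. The 1 dpi arrays were lowest, but -0.25 ± 0.11 (adjusted p 0.084) did not pass. Cenpe, the kinetochore motor that draws chromosomes to the spindle centre, read 3.31, 2.94 and 2.90 on the Ctrl arrays, 2.66, 2.68 and 2.75 at 1 dpi and 3.24, 3.13 and 3.08 at 3 dpi. It fell at 1 dpi (-0.35 ± 0.11, adjusted p 0.029) and overlapped Ctrl at 3 dpi. Cenpe passed as higher at 3 dpi with the slide as a block (0.23, adjusted p 0.033). Ndc80, which grips microtubule ends, read 0.02, -0.10 and -0.12 on the Ctrl arrays, -0.28, -0.30 and -0.35 at 1 dpi and -0.30, 0.08 and 0.16 at 3 dpi. It was lower on the 1 dpi arrays without passing (-0.25 ± 0.12, adjusted p 0.11), and 3 dpi replicate 1 stood with the 1 dpi arrays. Spc24, a part of the Ndc80 complex, read 2.74, 2.70 and 2.67 on the Ctrl arrays, 2.61, 2.64 and 2.55 at 1 dpi and 3.12, 2.95 and 2.96 at 3 dpi. It had the smallest change of this group at 1 dpi (-0.10 ± 0.07, adjusted p 0.24) and was above Ctrl at 3 dpi (0.31 ± 0.07, adjusted p 0.0097).

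The other kinetochore genes went the same way at 1 dpi. The checkpoint genes Bub1 and Mad2l1 fell (-0.34 and -0.59), as did the centromeric histone Cenpa and its reader Cenpn (-0.56 and -0.52). Cenpf, a large outer kinetochore protein, and Nuf2, the partner of Ndc80, had -0.72 and -0.53, and Spc25 had -0.21 (adjusted p 0.058). At 3 dpi Cenpn was still lower than Ctrl (-0.30 ± 0.05, adjusted p 0.0033), the only member to be so. From 1 to 3 dpi 11 of 12 (91.7%) rose, beside 19.8% of all genes. The group median there was 0.46.

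Anaphase genes had medians of -0.03 at 1 dpi and 0.16 at 3 dpi. The first of these was -0.28 relative to all genes, -0.34 with array medians, -0.15 with quantile scaling, -0.13 with deposited values and 0.04 without Ctrl replicate 1, so size and direction depend on the setting. Cdc20, which activates the anaphase-promoting complex, read 4.07, 3.82 and 3.80 on the Ctrl arrays, 3.93, 3.96 and 3.95 at 1 dpi and 4.02, 3.92 and 3.92 at 3 dpi. Its 1 dpi arrays were inside the Ctrl range (0.05 ± 0.08, adjusted p 0.63). Ube2c, the ubiquitin-conjugating enzyme of that complex, read 3.46, 3.33 and 3.31 on the Ctrl arrays, 3.16, 3.25 and 3.38 at 1 dpi and 3.66, 3.66 and 3.62 at 3 dpi. It overlapped at 1 dpi (-0.11, adjusted p 0.25), and at 3 dpi all its arrays were above Ctrl (0.28 ± 0.08, adjusted p 0.026). Pttg1 (securin), which holds separase inactive, read 3.19, 3.07 and 3.04 on the Ctrl arrays, 3.32, 3.39 and 3.36 at 1 dpi and 3.37, 3.39 and 3.29 at 3 dpi. It was above every Ctrl array at 1 dpi (0.26 ± 0.06, adjusted p 0.011) and at 3 dpi (0.26 ± 0.06, adjusted p 0.018), though at 1 dpi this was within 0.01 of the all-gene median. Espl1, the separase that cuts cohesin, read 2.40, 2.35 and 2.32 on the Ctrl arrays, 2.15, 2.19 and 2.19 at 1 dpi and 2.44, 2.30 and 2.34 at 3 dpi. It fell at 1 dpi without overlap (-0.18 ± 0.06, adjusted p 0.038) and overlapped at 3 dpi. With the slide as a block Espl1 had -0.16 at 1 dpi and did not pass (adjusted p 0.059), a value of similar size.

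Spindle motors and assembly factors fell in 7 of 9 (77.8%) at 1 dpi, beside 21.1% of all genes. The group median was -0.32. This median was -0.64 with array medians, -0.56 with probes averaged and -0.54 with deposited values. Kif18a, the plus-end motor that damps chromosome movements at the spindle centre, read -0.55, -0.60 and -0.60 on the Ctrl arrays, -1.72, -1.71 and -1.65 at 1 dpi and -0.82, -0.52 and -0.59 at 3 dpi. Its 1 dpi arrays were all far below Ctrl, 2.16-fold lower (-1.11 ± 0.08, adjusted p 3.8e-05), and its 3 dpi arrays 2.07-fold above 1 dpi (1.05 ± 0.08, adjusted p 9e-05), overlapping Ctrl. It is the only called member in both comparisons, is read by 1 probe (chr2:109181416-109181475, build mm9), and with normexp background correction had -0.92 and 0.88, under 2-fold. Without 3 dpi replicate 2 the rise was 0.99, so both of its calls lie near the 2-fold line. Kif11 (Eg5), which pushes the spindle poles apart, read 1.19, 0.95 and 0.92 on the Ctrl arrays, 0.48, 0.46 and 0.44 at 1 dpi and 1.26, 0.89 and 0.88 at 3 dpi. It fell at 1 dpi (-0.56 ± 0.12, adjusted p 0.0058) and overlapped Ctrl at 3 dpi (-0.01). Tpx2, which activates Aurka on the spindle, read 2.07, 2.02 and 1.96 on the Ctrl arrays, 1.72, 1.67 and 1.70 at 1 dpi and 2.14, 2.16 and 2.13 at 3 dpi. The 1 dpi arrays were below Ctrl (-0.32 ± 0.05, adjusted p 0.0018) and the 3 dpi arrays just above it without passing (0.12, adjusted p 0.13). Hmmr, a spindle pole protein, read 1.51, 1.29 and 1.26 on the Ctrl arrays, 1.31, 1.37 and 1.41 at 1 dpi and 1.41, 1.48 and 1.59 at 3 dpi. Both irradiated groups overlapped Ctrl, with 0.01 ± 0.09 (adjusted p 0.95) at 1 dpi. Hmmr passed as higher at 3 dpi with the slide as a block (0.22, adjusted p 0.044). The chromosome motors Kif22 and Kif4 (-0.65 and -0.30), the microtubule depolymerase Kif2c (-0.31) and the bundling protein Nusap1 (-0.70) fell at 1 dpi, and Dlgap5 did not pass (-0.13, adjusted p 0.15). Kif2c and Kif4 were above Ctrl at 3 dpi (0.24 and 0.21, adjusted p 0.027 and 0.03), while another probe of Kif4 gave -0.60. From 1 to 3 dpi 8 of 9 (88.9%) rose, beside 19.8% of all genes.

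Cytokinesis genes held some of the largest falls at 1 dpi, and Cep55 a rise. The 8 genes had a median of -0.44 (-0.69 after subtracting the all-gene median), and -0.20 when all probes of a gene were averaged. Anln, the scaffold of the contractile ring, read 2.50, 2.45 and 2.47 on the Ctrl arrays, 1.37, 1.48 and 1.60 at 1 dpi and 2.37, 2.47 and 2.53 at 3 dpi. All 1 dpi arrays were well below Ctrl, 1.99-fold lower (-0.99 ± 0.08, adjusted p 4.3e-05), and it came back by 3 dpi (0.98 ± 0.08, adjusted p 8.4e-05 against 1 dpi). Its probe at chr9:22136685-22136744 gave this fall, and another at chr9:22164875-22164934 (both mm9) gave 0.85, so its direction depends on the probe. Ect2, the exchange factor that activates RhoA at the cell equator, read 1.42, 1.28 and 1.24 on the Ctrl arrays, 0.56, 0.55 and 0.52 at 1 dpi and 1.43, 1.51 and 1.53 at 3 dpi. It fell by 0.77 (1.70-fold, ± 0.07, adjusted p 7.2e-05) with no overlap, and rose by 0.94 from 1 to 3 dpi (adjusted p 5.3e-05). Its other 2 probes gave -0.05 and -0.18 at 1 dpi, and 0.39 and -0.42 from 1 to 3 dpi, so the size of the fall and the direction of the rise depend on the probe. Kif23 and Racgap1 form centralspindlin, which brings Ect2 to the midzone. Kif23 read 1.66, 1.72 and 1.71 on the Ctrl arrays, 1.05, 1.18 and 1.22 at 1 dpi and 1.73, 1.79 and 1.70 at 3 dpi. It fell at 1 dpi with no overlap (-0.55 ± 0.07, adjusted p 0.00037), its 4 probes spanning -0.55 to 0.53. Racgap1 read 2.17, 1.90 and 1.88 on the Ctrl arrays, 1.69, 1.67 and 1.66 at 1 dpi and 2.29, 2.15 and 2.13 at 3 dpi. It too fell without overlap (-0.31 ± 0.09, adjusted p 0.022) and was back within the Ctrl range or above it at 3 dpi (0.20, adjusted p 0.14). Racgap1 passed as higher at 3 dpi with the slide as a block (0.30, adjusted p 0.0099). Its other probes gave -0.21 and -0.14 at 3 dpi without that block, so its direction there depends on the probe.

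Cep55, which acts last, in abscission, read -1.92, -1.76 and -1.69 on the Ctrl arrays, -1.04, -1.08 and -1.21 at 1 dpi and -1.27, -1.69 and -1.77 at 3 dpi. It was above every Ctrl array at 1 dpi (0.68 ± 0.14, adjusted p 0.0041), its probes spanning -0.14 to 0.68, and fell from 1 to 3 dpi (-0.47 ± 0.14, adjusted p 0.025). The midzone kinesin Kif20b and the microtubule bundler Prc1 fell at 1 dpi (-0.89 and -0.33, adjusted p 2.7e-05 and 0.0033), another probe of Kif20b giving -0.13. Kif20a, another midzone kinesin, did not pass at 1 dpi (-0.18) and was above Ctrl at 3 dpi (0.37 ± 0.11, adjusted p 0.038). On their brightest probes, centralspindlin, Ect2 and Anln were thus lower at 1 dpi and Cep55 higher, while other probes of Anln, Kif23 and Cep55 turn the sign.

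Condensin genes, which compact chromosomes, fell in 4 of 5 (80%) at 1 dpi, beside 21.1% of all genes. The group median was -0.49. Ncapg read 2.76, 2.60 and 2.58 on the Ctrl arrays, 2.11, 2.19 and 2.18 at 1 dpi and 2.69, 2.68 and 2.66 at 3 dpi. Its 1 dpi arrays lay below Ctrl (-0.49 ± 0.07, adjusted p 0.00071), and the 3 dpi arrays overlapped it. Smc2, a core ATPase of the complex, read 3.50, 3.23 and 3.20 on the Ctrl arrays, 2.53, 2.61 and 2.63 at 1 dpi and 3.25, 3.31 and 3.33 at 3 dpi. It fell without overlap (-0.72 ± 0.09, adjusted p 0.00045) and rose from 1 to 3 dpi by 0.70, while another probe gave 0.14 and 0.07, so its direction at 1 dpi depends on the probe. Ncapd2 did not pass on its brightest probe, and read 4.56, 4.28 and 4.29 on the Ctrl arrays, 4.32, 4.30 and 4.36 at 1 dpi and 4.56, 4.18 and 4.14 at 3 dpi. Its groups overlapped in all comparisons (-0.05 ± 0.13, adjusted p 0.74 at 1 dpi), while another probe gave -0.60 at 1 dpi and -0.83 at 3 dpi. Smc4 and Ncaph fell with the other subunits (-0.44 and -0.61).

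**Figure D3:**
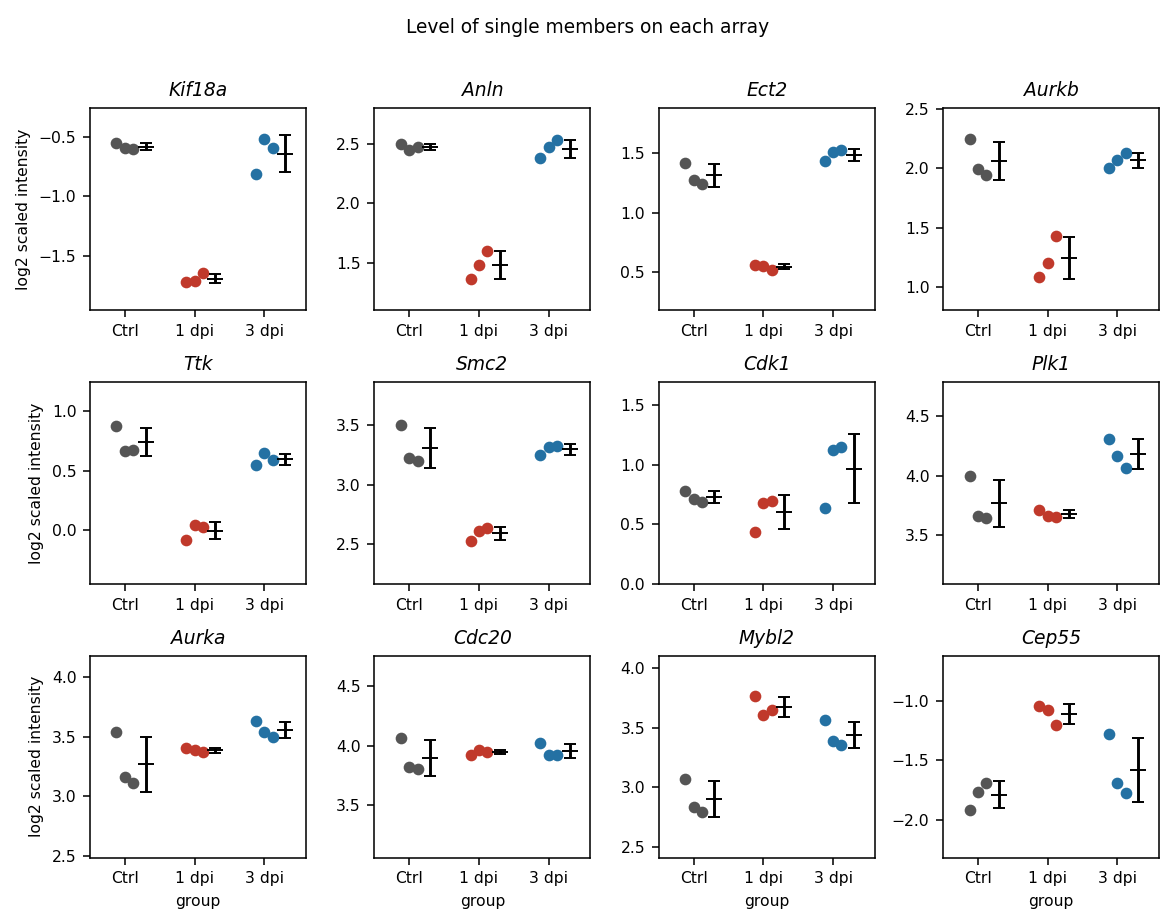
Level of 12 members on each array (log2 scaled intensity; points are arrays, bars the mean and SD), over equal spans of the vertical axis. Kif18a, Anln, Ect2, Aurkb, Ttk and Smc2 dip at 1 dpi, Cdk1, Plk1, Aurka and Cdc20 overlap Ctrl there, and Mybl2 and Cep55 rise.

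Set side by side, the G2/M cyclins and kinases, kinetochore and cytokinesis groups had medians of -0.30, -0.44 and -0.44 at 1 dpi, and 0.21, 0.06 and 0.11 at 3 dpi. From 1 to 3 dpi they had 0.43, 0.46 and 0.57. With all probes of a gene averaged these were 0.41, 0.43 and 0.22, and at 1 dpi -0.24, -0.44 and -0.20. The order of the groups thus depends on the probes. Differences between these groups were not tested. At 1 dpi all 3 kept their sign over the alternative settings tried by group, and at 3 dpi only the G2/M and anaphase groups did, the kinetochore and cytokinesis groups changing sign. Of 34 members with several kept probes, all probes had the same sign in 24 at 1 dpi, 14 at 3 dpi and 20 for 3 dpi against 1 dpi. Those with a probe of the other sign at 1 dpi were Anln, Ccnb1, Cep55, Kif23, Kif2c, Kif4, Nuf2, Plk4, Prc1 and Smc2, and of the members that passed at 3 dpi Kif4 and Plk4 had a probe of the other sign there.

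**Figure D4:**
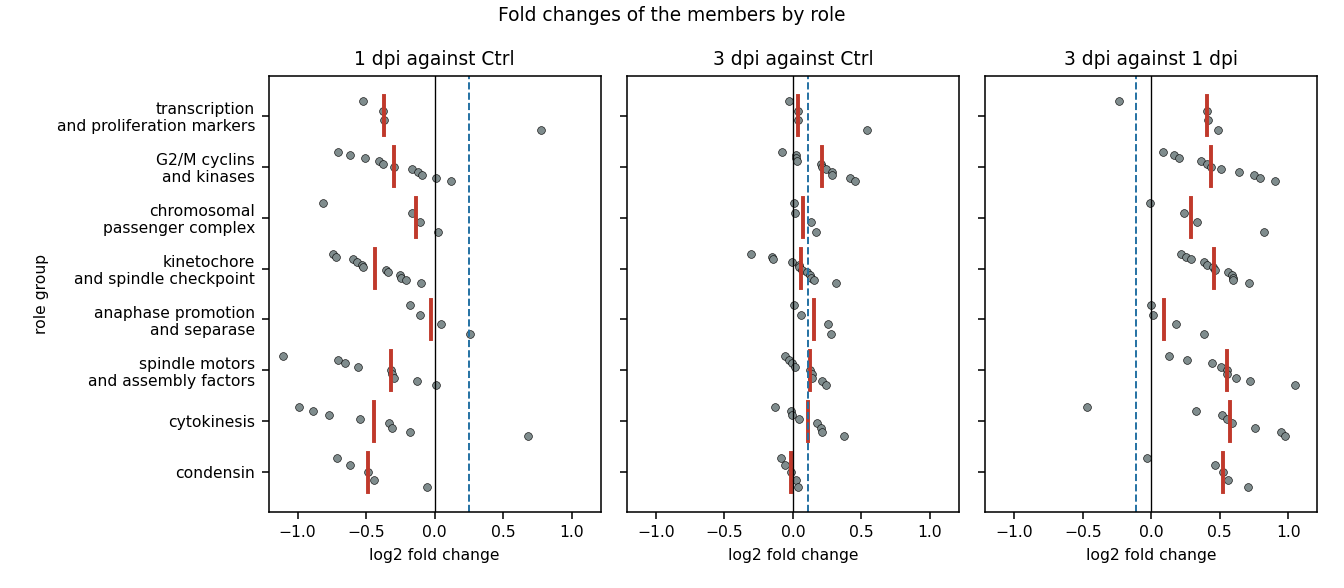
Log2 fold change of each member (points) by role group in the 3 comparisons, with group medians in red and the all-gene median dashed in blue. At 1 dpi every group median is below 0 (the anaphase median turns above 0 without Ctrl replicate 1), and kinetochore and cytokinesis medians at 3 dpi change sign with the scaling.

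Genes around these members were listed by name too. For calls in the lists from here on, 12.3% of all genes were higher and 2.87% lower at 1 dpi. These shares were 6.98% and 1.82% at 3 dpi, and 3.97% and 4.82% from 1 to 3 dpi. Of 71 other mitosis genes, 64 were below 0 at 1 dpi with a median of -0.47, and -0.03 at 3 dpi. Their summed level was 304, 280 and 274 on the Ctrl arrays, 234, 244 and 245 at 1 dpi and 315, 296 and 288 at 3 dpi, with Bub3 the brightest probe. At 1 dpi 2 (2.82%, beside 12.3% of all genes) were called higher, Psrc1 and Gtse1 (2.59 and 1.45). Another 3 (4.23%, beside 2.87%) were called lower, among them Cenpq and Depdc1a (-1.17 and -1.09), Cenpq having -0.34 with its probes averaged. At 3 dpi 1 was called higher (1.41%, beside 6.98% of all genes) and 0 lower. From 1 to 3 dpi 3 were called higher (4.23%, beside 3.97%) and 1 lower (1.41%, beside 4.82%). The members' own summed level was 506, 448 and 438 on the Ctrl arrays, 382, 388 and 391 at 1 dpi and 508, 488 and 479 at 3 dpi, with Birc5 the brightest probe. The anaphase-promoting complex, in 15 subunits, had 0 called by limma in any comparison and a median of 0.02 at 1 dpi, or -0.23 after subtracting the all-gene median, which 14 of 15 lay below. Its sum was 154, 148 and 146 on the Ctrl arrays, 156, 154 and 152 at 1 dpi and 150, 147 and 143 at 3 dpi, with Anapc5 the brightest probe.

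Some single genes outside the members moved as well at 1 dpi. Rhoc and Myl9 were called higher (1.94 and 1.21 at 1 dpi), Myl9 having 0.90 and no call with array medians. Myh10, the non-muscle myosin IIB heavy chain, was 3.71-fold lower (-1.89 ± 0.08, adjusted p 2.9e-06). Rhoa, the GTPase that Ect2 activates, had 0.41, and Arhgef2 (GEF-H1) -0.04, which is 1.08 and called higher in the deposited values.

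Among 18 genes of the DREAM and RB-E2F complexes, which control cell cycle promoters, 0 were called higher and 3 lower at 1 dpi, 0 at 3 dpi, and 2 higher from 1 to 3 dpi. Lin9, of the MuvB core, and Rbl1 (p107) were lower at 1 dpi (-1.41 and -1.15), though with probes averaged these were -0.33 and -0.34, while E2f4 and Rb1 had 0.40 and -0.07, or 0.20 (adjusted p 0.064) and 0.004 with the slide as a block. The sum was 101, 87.4 and 85.8 on the Ctrl arrays, 78.6, 78.5 and 79.3 at 1 dpi and 80.0, 80.4 and 78.9 at 3 dpi, with Rbbp4 the brightest probe. Of 12 p53 arrest targets 9 were called higher at 1 dpi and 4 at 3 dpi, with 0 lower, and 7 were lower at 3 dpi than at 1 dpi. Cdkn1a (p21) rose 14.6-fold at 1 dpi, Zmat3 20.5-fold and Phlda3 40.5-fold. Their sum was 57.7, 56.3 and 55.6 on the Ctrl arrays, 162, 162 and 158 at 1 dpi and 88.3, 83.2 and 81.0 at 3 dpi, with Mdm2 the brightest probe. Of 37 DNA replication genes 0 were called by limma in any comparison, and the median at 1 dpi was -0.04, or -0.29 after subtracting that of all genes. At 1 dpi 33 of 37 lay below the all-gene median and 27 of 37 did not overlap Ctrl, beside 67.5% of all genes. They had a sum of 440, 417 and 408 on the Ctrl arrays, 404, 410 and 409 at 1 dpi and 444, 422 and 415 at 3 dpi, Mcm6 being the brightest probe. A CHR was found in 6 of 29 replication promoters (20.7%) and in 40 of 61 of the other mitosis genes (65.6%). Replication genes were thus below the median gene at 1 dpi too, by less than the members.

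Marker genes of the cells in the samples were followed as well. In bulk samples, fewer cells of a type and less RNA per cell cannot be told apart, and the part of these lists in the members' result was not tested. Megakaryocyte markers, well above background on every array, had 0 of 18 called by limma in any comparison and a sum of 176, 156 and 155 on the Ctrl arrays, 165, 152 and 150 at 1 dpi and 173, 170 and 169 at 3 dpi, with Pf4 the brightest probe. Pf4 had 0.09 at 1 dpi and Itga2b (CD41) 0.69, while 10 of 18 were below 0 with a median of -0.05, or -0.30 relative to all genes, and 13 of 18 below the all-gene median. Erythroid markers moved at both times: of 17 tested 1 was called higher and 13 lower at 1 dpi, 0 and 15 at 3 dpi, and 8 and 3 from 1 to 3 dpi. Their sum, led by Hba-a1, was 142, 122 and 128 on the Ctrl arrays, 285, 232 and 227 at 1 dpi and 44.6, 45.4 and 42.5 at 3 dpi. Ahsp was 196-fold lower at 1 dpi, and Hba-a1, the called higher one, had 1.34 at 1 dpi and -1.48 at 3 dpi. With quantile scaling Hba-a1 had 0.70 at 1 dpi, and 0.69 with deposited values, not called in either. Rhd, dim at 1 dpi, had -6.51, a value that rests on 2 of 3 arrays well above background. Epb42, Rhag, Kel and Trim10 were well above background on 0 of 3 arrays at 1 dpi. With 6 of the 17 values at 1 dpi taken as bounds, the list's median of -2.98 became -2.09. Sptb and Rhd were well above background on 1 and 2 of 3 arrays at 1 dpi, and Epb42 on 2 of 3 at 3 dpi.

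B-cell precursor markers were called lower in 11 of 13 and higher in 1 at 1 dpi, lower in 11 and higher in 0 at 3 dpi, and higher in 4 and lower in 2 between them. Vpreb3 and Igll1 were lower at 1 dpi (-5.42 and -4.70) and Vpreb2 higher (1.78). Their sum was 34.9, 32.7 and 33.1 on the Ctrl arrays, 9.41, 8.70 and 8.87 at 1 dpi and 9.55, 9.29 and 9.18 at 3 dpi, with Cd79b the brightest probe, and Rag1 was well above background on no array at 1 or 3 dpi and Rag2 on 1 of 3 at 1 dpi. Granulocyte precursor markers had 2 of 13 called higher at 1 dpi, S100a8 and S100a9 (1.14 and 1.02), or 15.4% beside 12.3% of all genes, and 0 in the other comparisons by limma. With quantile scaling these were 0.42 and 0.24, and not called. The sum was 1416, 1450 and 1438 on the Ctrl arrays, 2381, 2237 and 2222 at 1 dpi and 1580, 1427 and 1500 at 3 dpi, with Mpo the brightest probe (0.92 at 1 dpi). Macrophage markers were called higher in 5 of 15 and lower in 2 at 1 dpi, higher in 11 at 3 dpi and higher in 9 between them. Marco and Siglec1 were higher at 1 dpi (2.95 and 1.62) and Timd4 and Cd163 lower (-2.52 and -2.07, Timd4 at -0.74 and not called with normexp). Their sum was 72.7, 64.5 and 62.6 on the Ctrl arrays, 89.7, 84.8 and 89.0 at 1 dpi and 173, 169 and 165 at 3 dpi, with Csf1r the brightest probe.

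T and NK cell markers had 2 of 11 (18.2%) called higher at 1 dpi, beside 12.3% of all genes (Gzma and Ncr1, 1.19 and 1.02, not called with array-median scaling at 0.88 and 0.71), 5 at 3 dpi and 3 between them, with a sum of 31.4, 33.2 and 31.6 on the Ctrl arrays, 46.2, 42.9 and 43.3 at 1 dpi and 40.8, 37.1 and 36.1 at 3 dpi, led by Nkg7. Stromal markers were called higher in 7 of 10 at 1 dpi, 6 at 3 dpi and 4 between them. Cxcl12 and Col1a2 had 2.71 and 2.36 at 1 dpi, and the sum, led by Cxcl12, was 10.3, 9.92 and 10.4 on the Ctrl arrays, 51.1, 44.0 and 47.9 at 1 dpi and 93.0, 84.8 and 91.3 at 3 dpi. Endothelial markers were called higher in 4 of 10 at 1 dpi (Cdh5 and Plvap with 1.74 and 1.49), 6 at 3 dpi and 1 between them. Their sum was 3.88, 3.60 and 3.64 on the Ctrl arrays, 6.94, 6.24 and 6.51 at 1 dpi and 11.8, 9.83 and 10.1 at 3 dpi, led by Stab2, and Flt4 was well above background on 2, 2 and 3 arrays of Ctrl, 1 dpi and 3 dpi. Stem and progenitor markers were called lower in 3 of 9 at 1 dpi (Flt3 and Meis1 with -1.65 and -1.20, Flt3 having -0.54 and no call with its probes averaged), 4 at 3 dpi and 2 between them, with a sum of 108, 105 and 102 on the Ctrl arrays, 79.6, 82.3 and 81.4 at 1 dpi and 65.1, 62.1 and 59.3 at 3 dpi, led by Myb. Mecom was well above background on 2 of 3 Ctrl arrays. The sums of the other cell type lists thus moved beside the mitosis genes at 1 dpi, 3 dpi or both, while the megakaryocyte sum overlapped Ctrl, with ratios of 0.959 at 1 dpi and 1.05 at 3 dpi.

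**Figure D5:**
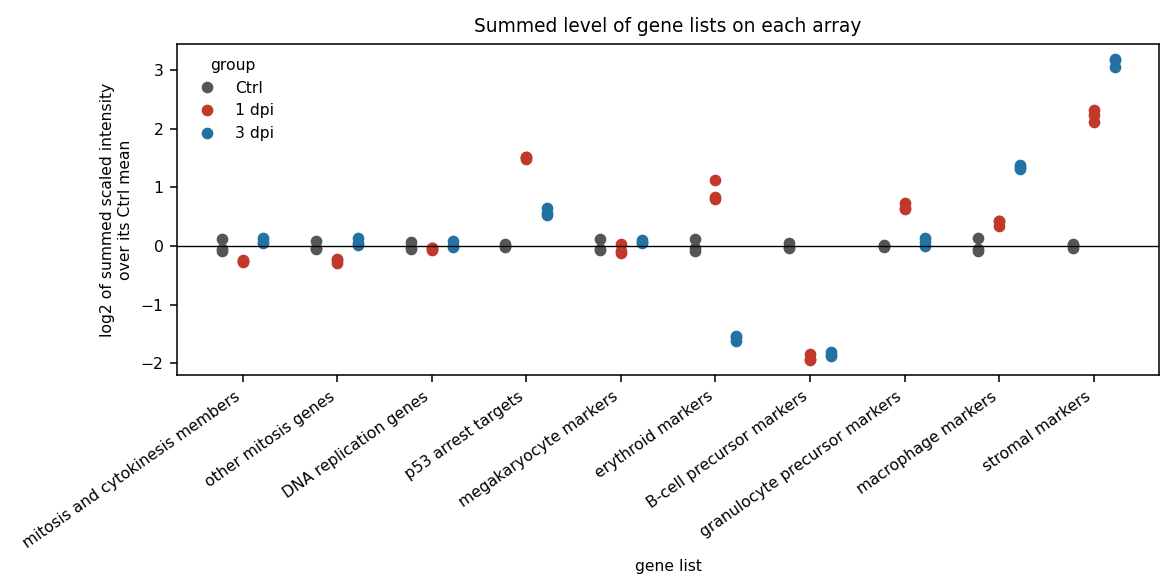
Summed scaled intensity of gene lists on each array, as log2 over the Ctrl mean of the list (points are arrays, coloured by group). The members and other mitosis genes are lower at 1 dpi only, p53 targets and stromal markers higher, and B-cell precursor markers lower at both times.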

How the data were processed

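Total RNA of 9 samples was read on Agilent 1-colour arrays. Per the file headers, the authors' scans were quantified with Agilent Feature Extraction 10.7.1.1, giving a processed intensity for each spot. The deposited matrix of log2 values by gene name, whose normalization is not stated, was used as an alternative only. From the scans, 3671 control spots and 20 probes of outlier spots were left out. The log2 intensity minus the array's 75th percentile was taken for 56605 probes, those well above background on all 3 arrays of a group were kept, and the brightest probe stood for a gene. The fit used limma 3.58.1 (lmFit, eBayes, a mean for each group, no covariate) in R 4.3.3 with data.table (1.17.8), and adjusted p by Benjamini-Hochberg over 29410 genes. Figures and promoter searches used Python 3.11.15 and matplotlib 3.10.9. Alternatives were quantile and array-median scaling, normexp, deposited values, other filters, the mean of probes, slide and replicate blocks, each array left out, no minimum fold, and the test of the methods. The members and lists were chosen with earlier results of these data known. Values on each array are given for genes named beforehand and for the highest and lowest at 1 dpi in each role group. In other lists, named genes are those called with the largest rises and falls at 1 dpi, and further genes fixed by name; some of these, and a list of genes, are not reported here.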

Additional observations from a re-analysis of the deposited data

Results flagged for a closer look

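For these genes the change at 3 dpi differed from that at 1 dpi, at an adjusted p under 0.05 and by at least 2-fold. Values are the difference in log2, 3 dpi minus 1 dpi, tested by limma. The difference was 1.05 for Kif18a, 1.07 for Cenpq, 1.097 for Depdc1a and -1.51 for Psrc1, all genes of mitosis. Myh10, a myosin heavy chain, had 1.03 and Lin9 of the MuvB core 1.17. Myh10 was no longer called with deposited values (0.76, adjusted p 0.29), normexp (0.43) or probes averaged (0.58), nor Lin9 with deposited values (0.41) or probes averaged (-0.10), nor Cenpq with probes averaged (0.32). The p53 targets Cdkn1a and Phlda3 had -1.39 and -1.11. Among erythroid genes Hba-a1 had -2.82, Ahsp 4.99 and Rhd, dim at 1 dpi, 3.70. Among probes well above background on all arrays Rhd had 0.37 (adjusted p 0.071). B-cell genes differed by -3.50 (Vpreb2), 1.46 (Vpreb3) and 1.26 (Igll1), the last being 0.09 (adjusted p 0.33) with normexp. Macrophage genes differed by 2.81 (Cd163), 1.22 (Siglec1) and 3.05 (Timd4). The remaining differences were 1.04 for Gzma, 1.14 for Col1a2 and -1.04 for Meis1.

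Kif18a is read by 1 probe. Leaving out each array in turn gave it 0.99 to 1.14 here, its call ending without 3 dpi replicate 2, and with normexp it was 0.88. Calls for Phlda3, Siglec1, Gzma and Meis1 also ended in some settings, and the cause of these differences was not tested.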

How the results depend on the processing

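The fall of the members at 1 dpi kept its direction in all 18 settings that give a median, at -0.66 to -0.30, and -0.84 to -0.38 relative to all genes. So did the return from 1 to 3 dpi, at 0.38 to 0.66. Not all settings check this. The other filters, the replicate block and leaving out a 3 dpi array left the members' median at 1 dpi unchanged. The slide block gave the same median there as leaving out Ctrl replicate 1. From 1 to 3 dpi the other filters, both blocks and leaving out a Ctrl array changed nothing. At 3 dpi the direction was not kept. Why the values below moved was not tested.

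At 1 dpi the members called were 10 with array medians and 5 with deposited values, 1 to 2 leaving out an array, and 39 with no minimum fold. At 3 dpi they were 1 with deposited values and 11 with no minimum fold. For 3 dpi against 1 dpi they were 2 with quantile scaling, 5 with array medians, 3 with deposited values, 0 to 3 leaving out an array, and 45 with no minimum fold.

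The median at 1 dpi was -0.66 with array medians, -0.41 with normexp, -0.42 with deposited values, -0.30 with the slide block and -0.36 to -0.30 leaving out an array. At 3 dpi it was -0.079 with array medians, 0.14 with the slide block and 0.021 to 0.14 leaving out an array. For 3 dpi against 1 dpi it was 0.66 with array medians, 0.53 with normexp and 0.38 with probes averaged.

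Relative to all genes the median at 1 dpi was -0.38 with quantile scaling, -0.84 with normexp, -0.42 with deposited values, -0.73 with no filter, -0.45 with the slide block and -0.64 to -0.45 leaving out an array. At 3 dpi it was 0.069 with deposited values, 0.13 with the slide block and -0.12 to 0.13 leaving out an array, and for 3 dpi against 1 dpi 0.46 with quantile scaling and 0.86 with normexp.

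Members higher at 3 dpi with no minimum fold numbered 0 with array medians, 6 with deposited values, 18 with the slide block and 4 to 18 leaving out an array. Reversed single genes were Kif23 at 3 dpi with deposited values (-1.15), Arhgef2 with deposited values (1.08 at 1 dpi, 1.03 at 3 dpi), and for 3 dpi against 1 dpi Lin9 with probes averaged (-0.10).

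Of 2079 values of named members under alternatives, 1898 kept direction and side of the threshold, 3 became weaker, 67 stronger, 1 reversed, and 110 differed in sign without a call. The labels do not say whether a replicate number marks a shared experiment. After removing group means, same-number arrays correlated at -0.11 to 0.13 and other pairs of arrays from different groups at -0.15 to 0.10. With so few arrays this cannot settle whether the numbers pair them. A replicate block gave 1, 0 and 1 members called. Of all calls at 1 dpi 81.1% were higher, against 48.8% with array medians, so this balance changes with the scaling. Signal over background, lowest on Ctrl replicate 1, limits what can be read of dim genes.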
